A study of Mus musculus with 8 samples.

Results

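Interferon response genes were examined in isolated mouse glomeruli as a list of 40 named gene symbols. For each symbol the probe set with a single gene symbol and the highest mean over 8 arrays was used, which gave 37 measured members of 22180 measured genes. Ifi44, Gbp2 and Dtx3l matched no such probe set and are not analysed here. No filter on low values was applied, so all 37 measured members entered every count. Of them 8 had a mean at or below the median gene mean of 4.92 on the log2 scale. These were Isg15, Ifit2, Mx1, Mx2, Dhx58, Oas3, Zbp1 and Trim30a. Each array holds total RNA of 1 glomerular isolate as biotinylated cRNA, and all mice were 13 weeks old and had received doxycycline for 3 weeks from 8 weeks of age. The control group (2 arrays) has the genotype entry control and no further treatment entry. The other groups carry the genotype Tln1 Pod-rtTA TetO-Cre and then received, for 2 weeks, either vehicle (3 arrays, Tln1 vehicle) or the histone deacetylase inhibitor valproic acid (3 arrays, Tln1 VPA). By its name the line expresses a doxycycline-dependent Cre in podocytes, the epithelial cells of the glomerular filter, so other cells of the isolate would keep Tln1, the gene of the integrin adaptor talin 1. Strain, sex, pooling and whether each array stands for its own animal are not given in the labels, so p-values measure the spread between these arrays, which may be technical.

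Interferons are secreted alarm proteins that act through Janus kinases and STAT transcription factors. Type I interferons assemble a complex holding STAT2 and IRF9 that binds the interferon-stimulated response element and drives antiviral genes such as the Ifit, Oas and Mx families. Interferon gamma, made mainly by T and natural killer cells, acts at gamma-activated sites and through IRF1, and is the main inducer of the immunity-related GTPases, the guanylate-binding proteins, the immunoproteasome and peptide transport into the MHC pathway. Many of the genes respond to either signal.

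The promoters of 4 members are shown because they carry the letters of these binding sites. Stat2 and Ifit1 are among the members with the smallest p between Tln1 VPA and Tln1 vehicle, whereas Igtp and Irgm2 were chosen after their values had been seen. Each sequence runs from 250 bases before to 50 bases after the annotated start (RefSeq, GRCm38.p6), and capitals mark matches to the core of the response element (GAAA, any 2 bases, GAAA) or to TTCNNNGAA, the core of the gamma-activated site, on either strand.
Stat2, chr10:128270248-128270547, + strand: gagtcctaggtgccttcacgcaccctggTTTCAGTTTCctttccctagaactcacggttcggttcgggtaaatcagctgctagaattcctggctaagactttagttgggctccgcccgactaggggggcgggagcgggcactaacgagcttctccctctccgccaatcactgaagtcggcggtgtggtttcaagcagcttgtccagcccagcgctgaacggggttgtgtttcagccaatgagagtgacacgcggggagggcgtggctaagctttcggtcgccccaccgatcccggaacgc
Ifit1, chr19:34640639-34640938, + strand: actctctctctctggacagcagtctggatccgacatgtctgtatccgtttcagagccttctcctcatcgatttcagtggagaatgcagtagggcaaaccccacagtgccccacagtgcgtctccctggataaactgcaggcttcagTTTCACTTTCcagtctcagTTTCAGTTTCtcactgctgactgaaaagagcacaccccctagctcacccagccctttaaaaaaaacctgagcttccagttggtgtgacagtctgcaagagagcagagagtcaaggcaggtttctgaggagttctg
Igtp, chr11:58199306-58199605, + strand: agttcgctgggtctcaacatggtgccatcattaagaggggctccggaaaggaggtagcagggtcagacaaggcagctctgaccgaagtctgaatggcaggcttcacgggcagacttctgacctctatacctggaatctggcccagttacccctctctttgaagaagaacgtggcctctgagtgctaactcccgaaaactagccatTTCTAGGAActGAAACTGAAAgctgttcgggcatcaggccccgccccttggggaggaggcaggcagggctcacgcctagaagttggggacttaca
Irgm2, chr11:58214727-58215026, + strand: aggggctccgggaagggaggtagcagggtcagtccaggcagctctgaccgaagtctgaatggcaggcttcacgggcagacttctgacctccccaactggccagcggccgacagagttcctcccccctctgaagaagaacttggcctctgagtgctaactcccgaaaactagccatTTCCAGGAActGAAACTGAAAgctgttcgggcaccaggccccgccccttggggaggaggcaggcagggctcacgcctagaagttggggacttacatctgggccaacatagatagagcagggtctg
In Igtp the gamma-activated letters start at position -45 and the response element letters at position -34 from the annotated start, and in Irgm2 the same letters stand in the same order at -75 and -64. Ifit1 holds 2 response element matches and no gamma-activated match, and Stat2 holds 1 response element match. The table held 35 such windows for 28 of the 37 members, and 48.6% of these windows had the response element letters, beside 3.44% of all 32851 windows. The gamma-activated letters stood in 31.4% of the members' windows and in 8.30% of all windows. The 2 searches share no letters in the windows printed, and a match describes the sequence only.

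The arrays formed 2 sets that do not follow the groups, by correlation across all genes. The first set holds control 1, Tln1 vehicle 1 and 2 and Tln1 VPA 1 and 2, and the second holds control 2, Tln1 vehicle 3 and Tln1 VPA 3. Between 5.64% and 7.24% of genes had exactly equal values in a pair of arrays of the first set, and 10.5% to 12% in a pair of the second, but at most 0.00902% did so across the sets. The sources used here do not say whether the sets were summarised apart. The results are therefore also given within a set, with the second set holding a single array of each group. A single array, Tln1 VPA 3, stands apart from the rest in the interferon response genes, and results are given with and without it. The mean of the podocyte markers ranged from 7.22 to 8.03 over first-set arrays and from 8.67 to 9.43 over second-set arrays. That of the proximal tubule markers was 11.51 to 12.01 over first-set arrays and 10.44 to 10.9 over second-set arrays. The isolates thus held tubular RNA, and both marker means differed between the sets. In such bulk samples, fewer cells of a type and less RNA per cell cannot be told apart.

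Most interferon response genes had their highest value in Tln1 VPA 3. That array was the highest of all 8 for 29 of the 37 members, whereas it was the highest for 7.04% of all genes. Control 1 was the highest for 3 members, Tln1 vehicle 1 for 2, and each other array for at most 1. Inside the second set, Tln1 VPA 3 lay above both other arrays for 32 members and below both for 0, beside 26.3% of all genes above and 26.3% below. It exceeded every other array by at least 1 log2 unit for 10 members (Igtp, Gbp3, Irgm2, Psmb8, Psmb9, Gbp7, Irgm1, Bst2, Tap1 and Zbp1), beside 49 genes, or 0.221%, on the whole array. The mean over all 37 members was 6.76 in Tln1 VPA 3 and 5.72 to 5.98 in the other 7 arrays, which do not separate by group.

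**Figure D1:**
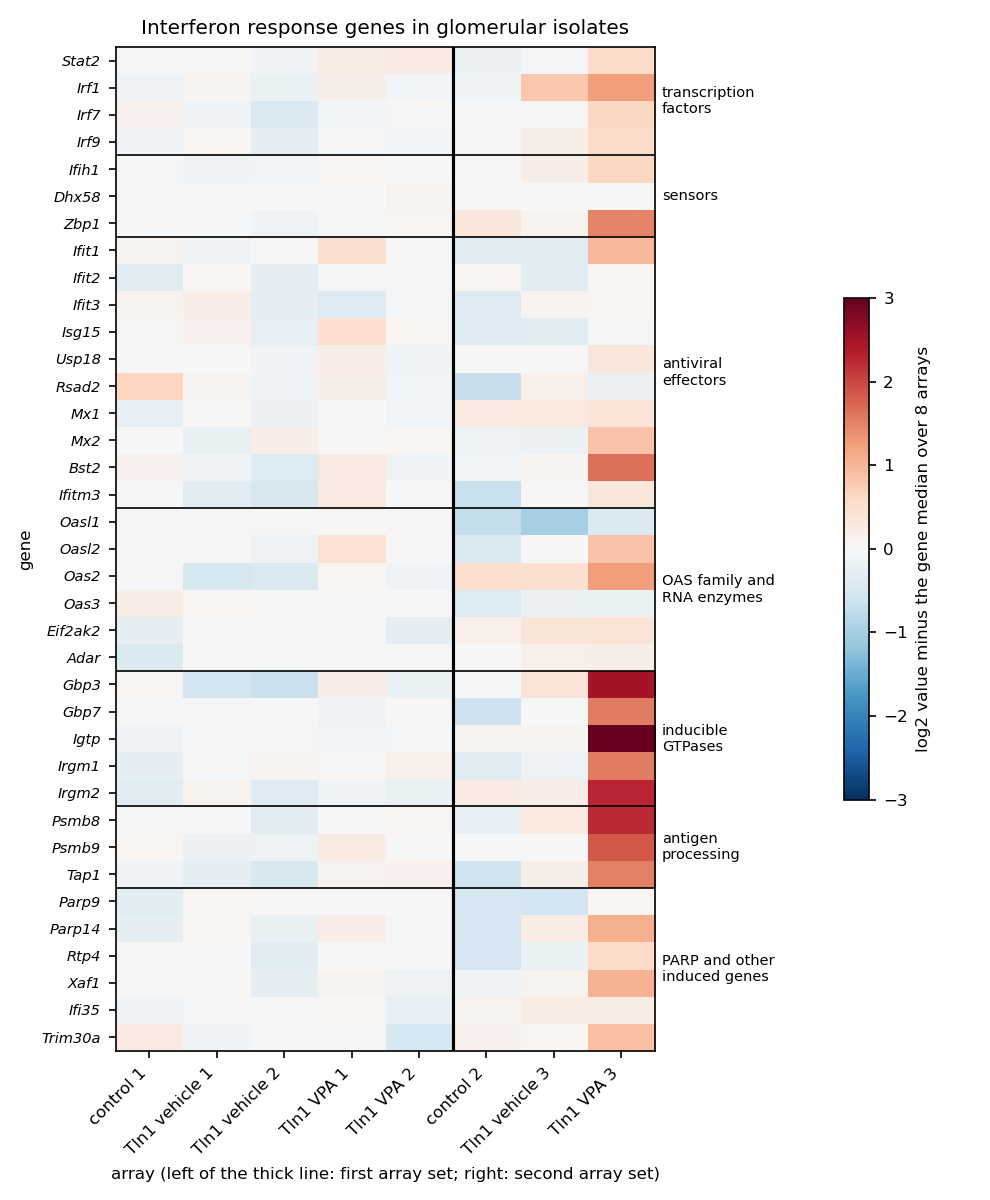
Log2 value of each of the 37 members (rows, by role) in each of the 8 arrays (columns), minus that gene's median over the 8 arrays. The thick line parts the first array set from the second, and the strongest colours stand in the GTPase and antigen processing rows of Tln1 VPA 3, up to Igtp at 9.18 against 6.05 to 6.28 in the other arrays.

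The interferon-inducible GTPases, which attack the vacuoles of intracellular microbes, showed the widest gap, with all 5 measured members highest in Tln1 VPA 3, as were all 4 transcription factors and all 3 antigen processing genes. Igtp, also called Irgm3, stood at 6.05 and 6.28 in control 1 and 2, at 6.17, 6.23 and 6.28 in Tln1 vehicle 1 to 3, and at 6.12, 6.14 and 9.18 in Tln1 VPA 1 to 3. The other arrays lie close together, and Tln1 VPA 3 alone is high. Against Tln1 vehicle 3 of the same set it was 2.90 log2 units, or 7.46-fold, higher, whereas the first-set change was -0.07. Irgm2 stood at 6.35 and 6.92 in control, at 6.79, 6.31 and 6.88 in Tln1 vehicle and at 6.58, 6.48 and 8.96 in Tln1 VPA arrays. Irgm1, which restrains the other immunity-related GTPases on the cell's own membranes, stood at 5.73 and 5.67 in control, at 5.99, 6.11 and 5.87 in Tln1 vehicle and at 6.07, 6.19 and 7.57 in Tln1 VPA arrays. Irgm1 alone of these 3 had every Tln1 vehicle and every Tln1 VPA array above both control arrays. The guanylate-binding protein gene Gbp3 stood at 5.04 and 4.90 in control, at 4.43, 4.31 and 5.35 in Tln1 vehicle and at 5.18, 4.78 and 7.46 in Tln1 VPA arrays. Gbp7 stood at 7.26 and 6.67 in control, at 7.29, 7.28 and 7.30 in Tln1 vehicle and at 7.16, 7.30 and 8.85 in Tln1 VPA arrays. Of the 5 GTPases, Gbp3 was also higher with valproic acid in the first set, by 0.61, while the other 4 lay between -0.07 and 0.08 there. Igtp and Irgm2 neighbour each other on the chromosome, as do Gbp7 and Gbp3 (RefSeq, GRCm38.p6), and near-identical members of these families may share signal at a probe set.

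The genes of peptide supply to MHC class I were higher with valproic acid in both sets. Psmb8 and Psmb9 encode catalytic subunits of the immunoproteasome, and Tap1 encodes a chain of the transporter that carries peptides into the endoplasmic reticulum. Psmb8 stood at 6.05 and 5.82 in control, at 6.05, 5.73 and 6.36 in Tln1 vehicle and at 6.07, 6.11 and 8.30 in Tln1 VPA arrays. Psmb9 stood at 5.09 and 4.96 in control, at 4.84, 4.87 and 5.0 in Tln1 vehicle and at 5.26, 5.04 and 6.88 in Tln1 VPA arrays, so that every Tln1 VPA array was above every Tln1 vehicle array. Tap1 stood at 6.89 and 6.39 in control, at 6.69, 6.52 and 7.16 in Tln1 vehicle and at 7.09, 7.12 and 8.51 in Tln1 VPA arrays. Their differences from Tln1 vehicle were 0.20 to 0.50 within the first set and 1.35 to 1.94 within the second. Psmb9, Tap1 and Psmb8 lie next to each other in that order.

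**Figure D2:**
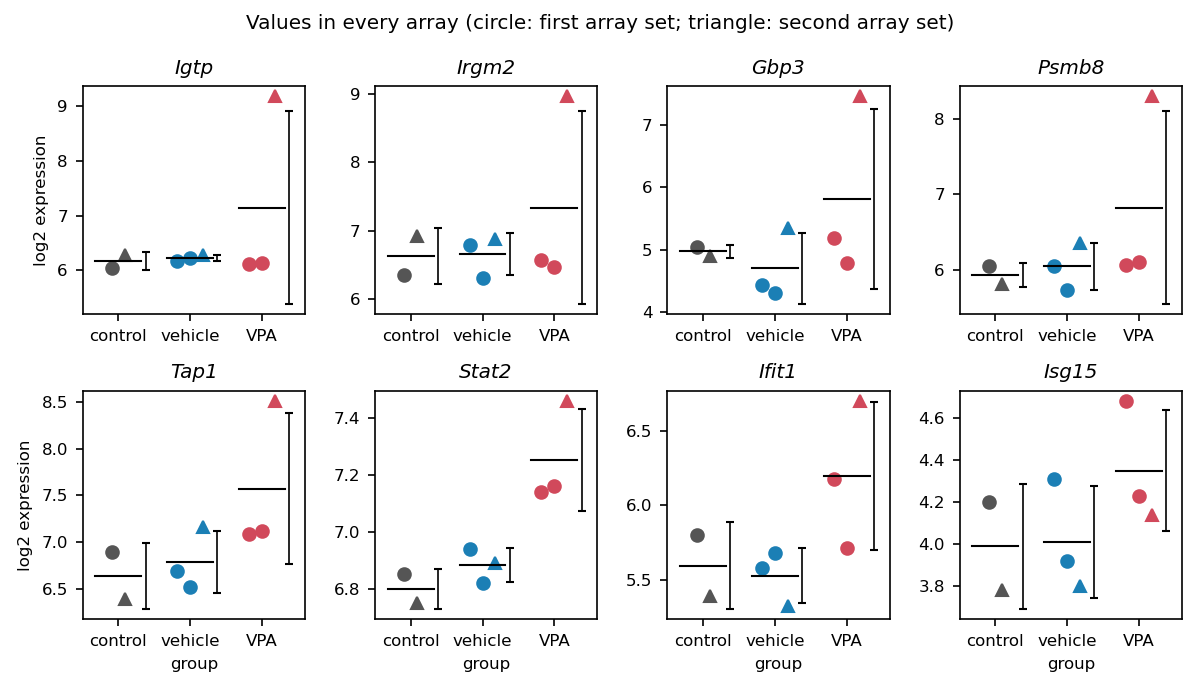
Log2 expression of 8 members in every array by group, with circles for the first and triangles for the second array set. Horizontal lines mark group means and vertical bars 1 SD to either side of the mean (2 control, 3 vehicle and 3 VPA arrays), and each panel has its own axis. Igtp, Irgm2, Gbp3, Psmb8 and Tap1 show a single high VPA array, and Stat2 shows all 3 VPA arrays above the other 5. Isg15 shows overlapping groups, with Tln1 VPA 3 as the lowest VPA array but the highest array of the second set.

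The transcription factors differed less. STAT2 and IRF9 are parts of the type I complex, IRF7 amplifies interferon production and IRF1 drives many interferon gamma targets. Stat2 stood at 6.85 and 6.75 in control, at 6.94, 6.82 and 6.89 in Tln1 vehicle and at 7.14, 7.16 and 7.46 in Tln1 VPA arrays, so that every Tln1 VPA array exceeded all 5 others. Irf1 stood at 6.02 in control 1 and 6.02 in control 2, at 6.19, 5.91 and 6.92 in Tln1 vehicle and at 6.28, 6.04 and 7.37 in Tln1 VPA arrays. Its highest values fell in Tln1 vehicle 3 and Tln1 VPA 3, both of the second set. Irf7 stood at 6.69 and 6.51 in control, at 6.42, 6.12 and 6.59 in Tln1 vehicle and at 6.46, 6.59 and 7.16 in Tln1 VPA arrays. Irf9 stood at 6.88 and 7.03 in control, at 7.05, 6.73 and 7.17 in Tln1 vehicle and at 6.97, 6.92 and 7.55 in Tln1 VPA arrays. With valproic acid the 4 factors were higher by 0.06 to 0.27 within the first set and by 0.38 to 0.57 within the second.

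The antiviral effectors were divided. Ifit1, which binds foreign RNA caps, stood at 5.80 and 5.39 in control, at 5.58, 5.68 and 5.32 in Tln1 vehicle and at 6.18, 5.71 and 6.70 in Tln1 VPA arrays, so that the Tln1 groups did not overlap. Bst2, the tetherin that holds budding virus at the cell surface, stood at 7.08 and 6.85 in control, at 6.84, 6.52 and 7.03 in Tln1 vehicle and at 7.22, 6.84 and 8.59 in Tln1 VPA arrays. Ifitm3, which blocks viral entry through endosomes, stood at 8.88 and 8.20 in control, at 8.56, 8.38 and 8.88 in Tln1 vehicle and at 9.14, 8.86 and 9.20 in Tln1 VPA arrays, so that Tln1 VPA 1 and 3 are close together. Isg15, a ubiquitin-like modifier, stood at 4.20 and 3.78 in control, at 4.31, 3.92 and 3.80 in Tln1 vehicle and at 4.68, 4.23 and 4.14 in Tln1 VPA arrays. Its change with valproic acid was 0.34 within the first set and 0.34 within the second. Tln1 VPA 3 was the lowest array of its group for Isg15 but the highest of its set. Rsad2, the enzyme viperin, stood at 7.83 and 6.50 in control, at 7.26, 7.07 and 7.34 in Tln1 vehicle and at 7.36, 7.10 and 7.0 in Tln1 VPA arrays, where the VPA 3 value is the lowest of its group. Ifit2, Ifit3, Usp18, Mx1 and Mx2 completed this group, and of them only Mx2 was more than 1 log2 unit higher in Tln1 VPA 3 than in Tln1 vehicle 3 (1.03). Usp18, which removes ISG15 and dampens type I signalling, was 0.31 higher, Mx1 was 0.10 higher and Ifit3 was at -0.01. Of the 10 antiviral effectors 4 (Isg15, Ifit2, Mx1 and Mx2) had means at or below the median gene mean. This held for 0 of the 5 GTPases and 0 of the 3 antigen processing genes.

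The oligoadenylate synthetase family, which activates RNA breakdown in infected cells, was mixed too. Oasl2 stood at 6.0 and 5.55 in control, at 5.99, 5.83 and 5.97 in Tln1 vehicle and at 6.42, 5.99 and 6.85 in Tln1 VPA arrays, with the Tln1 groups apart only narrowly. Oas2 stood at 4.88 and 5.43 in control, at 4.41, 4.49 and 5.41 in Tln1 vehicle and at 4.99, 4.83 and 6.19 in Tln1 VPA arrays, and its values followed the array sets as well as the treatment. Oasl1 stood at 5.49 and 4.74 in control, at 5.44, 5.49 and 4.48 in Tln1 vehicle and at 5.49, 5.49 and 5.02 in Tln1 VPA arrays, with its 3 lowest values in the second set. The change of Oas3, the neighbour of Oas2, was -0.03 and -0.02 in the first and second sets. Eif2ak2, the RNA-activated kinase PKR, was at -0.09 and 0.02, and Adar, which edits double-stranded RNA, at 0.00 and 0.02.

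Among the sensors, Zbp1, which detects Z-form nucleic acid, stood at 4.50 and 4.91 in control, at 4.51, 4.46 and 4.66 in Tln1 vehicle and at 4.51, 4.61 and 6.04 in Tln1 VPA arrays. Ifih1, the RNA sensor MDA5, was at 7.94 in Tln1 VPA 3 and between 7.23 and 7.54 elsewhere. Dhx58, the related helicase LGP2, lay between 4.45 and 4.57 in all 8 arrays. Parp14, an ADP-ribosyltransferase, stood at 6.31 and 6.06 in control, at 6.63, 6.36 and 6.80 in Tln1 vehicle and at 6.78, 6.52 and 7.65 in Tln1 VPA arrays, with both Tln1 groups above control. Parp9, of the same enzyme family, stood at 5.96 and 5.77 in control, at 6.34, 6.26 and 5.71 in Tln1 vehicle and at 6.30, 6.30 and 6.34 in Tln1 VPA arrays, and did not single out Tln1 VPA 3. Xaf1, Rtp4 and Trim30a were 0.95, 0.78 and 0.85 higher in Tln1 VPA 3 than in Tln1 vehicle 3, and Ifi35 was at 0.00.

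The comparison of Tln1 VPA with Tln1 vehicle addressed what 2 weeks of valproic acid changed, and no interferon response gene was called in it. In the limma fit over all 8 arrays, 32 of the 37 members were higher and 5 lower, at a median log2 change of 0.37 beside 0.00 over all genes. At an adjusted p below 0.05, 0 of 37 members and 0 of all genes (0%) were called. At an unadjusted p below 0.05, 2 members were higher and 0 lower, beside 0.834% of all genes higher and 0.428% lower. They were Stat2, at a change of 0.37 (SE 0.12, limma adjusted p = 1.00), and Ifit1, at 0.67 (SE 0.25, limma adjusted p = 1.00). Oasl2 was at 0.50 (SE 0.22), Ifitm3 at 0.46 (SE 0.21), Tap1 at 0.78 (SE 0.39) and Psmb9 at 0.82 (SE 0.43), none of which passed. Every Tln1 VPA array exceeded every Tln1 vehicle array for 4 members (Stat2, Ifit1, Oasl2 and Psmb9), beside 1.98% of all genes, and the reverse held for 0 members, beside 1.57% of all genes. Igtp, with the widest single gap, was at 0.92 with an SE of 0.74, since its spread lies inside the Tln1 VPA group. With the array set as a block the unadjusted count was 5 members (Stat2, Ifit1, Oas2, Gbp3 and Tap1), beside 3.32% of all genes higher, and again 0 were called. The same-numbered Tln1 arrays deviated together, and with the replicate number as a block 9 members had an unadjusted p below 0.05, beside 3.65% of all genes higher, with 0 called.

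Without Tln1 VPA 3 the median change of the members was 0.06 beside 0.05 over all genes, and 26 were higher and 11 lower, where 62.2% of all genes were higher. No member then had an unadjusted p below 0.05, beside 1.80% of all genes, and 0 were called by limma. Stat2 was at 0.27 (SE 0.12) and Ifit1 at 0.42 (SE 0.21) without that array, but Igtp was at -0.10 (SE 0.13). Psmb9 was at 0.25, Tap1 at 0.31, Oasl2 at 0.28 and Ifitm3 at 0.39 without it. Within the first set, where valproic acid and vehicle have 2 arrays each, 29 members were higher and 8 lower at a median of 0.09, beside 51.6% higher and a median of 0.01 over all genes. Arrays of the first set did not overlap for 11 members higher and 1 lower, beside 18.0% of all genes higher and 16.2% lower. The 6 members with an unadjusted p below 0.05 in that set were all higher, beside 4.16% of all genes, namely Gbp3 (0.61), Ifitm3 (0.53), Tap1 (0.50), Oas2 (0.46), Psmb9 (0.29) and Stat2 (0.27), and limma called 0. In the second set, where the difference is that of 2 single arrays, the median was 0.63 and 12 members were at least 1 log2 unit higher, beside 0.559% of all genes.

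**Figure D3:**
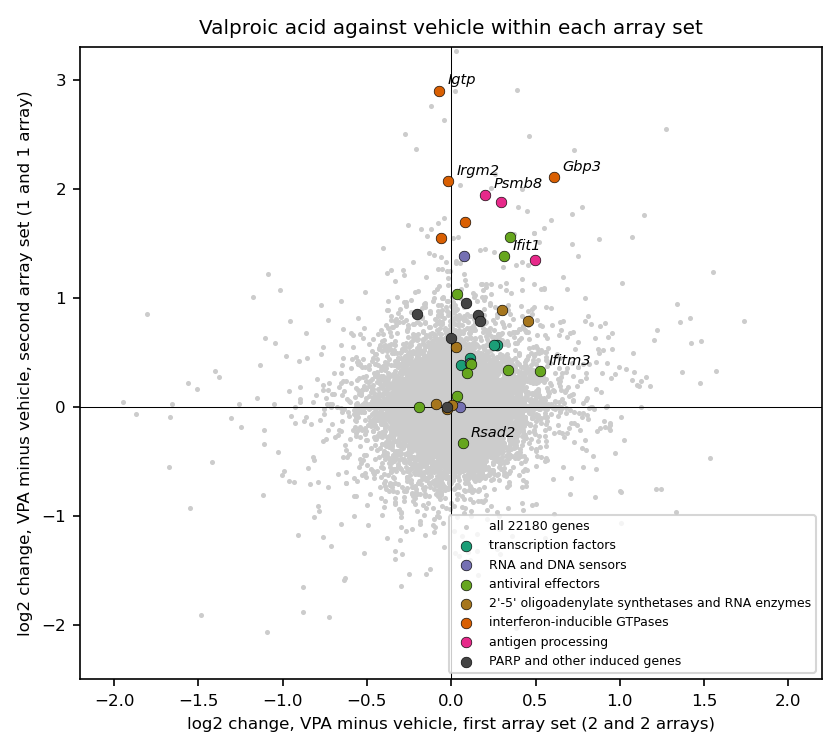
Log2 change, Tln1 VPA minus Tln1 vehicle, within the first array set (x axis, means of 2 and 2 arrays) and within the second (y axis, 1 and 1 array). Coloured points are the 37 members by role and grey points all 22180 genes, of which 10 lie outside the axes. The GTPases lie near 0 on the x axis, apart from Gbp3 at 0.61, and between 1.55 and 2.90 on the y axis, whereas Ifitm3 (0.53 and 0.33) and Stat2 (0.27 and 0.57) are positive on both.

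Between the sets, the valproic acid effect was larger in the second for 33 of 37 members, at a median difference of 0.52 beside -0.01 over all genes. For Igtp the difference was 2.97, for Irgm1 1.62 and for Gbp7 1.61. In the limma interaction fit the spread between arrays comes from the 2 Tln1 vehicle and 2 Tln1 VPA arrays of the first set alone, since the second set adds 1 array of each. Its p-values therefore say nothing of the spread in the second set, and they rest on an array already seen to stand apart. At an unadjusted p below 0.05, 16 members had a larger effect in the second set and 0 a smaller one, beside 5.18% of all genes larger and 9.68% in either direction, and no member was called (0% of all genes). With each array centred on its median, or with quantile normalisation, 1 member (Igtp) passed the threshold of that fit, beside 0.0631% and 0.0496% of all genes, under the same limit. Since the second set has a single Tln1 VPA array, an effect of the set and the state of that isolate cannot be told apart. Seen over all arrays, the members with the largest means in the second set relative to the first were Gbp3 (1.16), Igtp (1.11) and Irgm2 (1.08), and these differences were 0.38, 0.14 and 0.40 without Tln1 VPA 3. The lowest were Oasl1 (-0.74), Rsad2 (-0.38) and Isg15 (-0.36), at -0.87, -0.41 and -0.48 without that array.

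Tln1 vehicle against control addressed what differs after the podocyte change, and the interferon response genes gave no call there either. Of the 37 members 25 were higher and 12 lower, with changes between -0.39 and 0.41 and a median of 0.03, beside 0.02 over all genes and 55.6% of all genes higher. At an adjusted p below 0.05, 0 members and 0 genes (0%) were called by limma, and at an unadjusted p below 0.05 it was 0 of 37 members beside 1.45% of all genes. With arrays centred on their medians the split was 19 higher and 18 lower. The smallest p belonged to Adar, at 6.48 and 6.89 in control and at 6.93, 6.87 and 7.06 in Tln1 vehicle arrays, and at 6.93, 6.87 and 7.08 in Tln1 VPA arrays, with a Tln1 vehicle minus control log2 change of 0.26 (SE 0.16) over all arrays and of 0.42 and 0.17 within the first and second sets. With the array set as a block Adar alone had an unadjusted p below 0.05, beside 7.30% of all genes (change 0.30, SE 0.09, limma adjusted p = 0.511). Parp14 was at 0.41 (SE 0.32), Parp9 at 0.24 (SE 0.20), Irf1 at 0.32 (SE 0.42), Irf7 at -0.22 (SE 0.23) and Oas2 at -0.39 (SE 0.46). Gbp7, Irgm1 and Parp14 were higher and Trim30a lower without overlap, beside 4.78% of all genes higher and 3.59% lower. The median of the members was -0.04 within the first set and 0.14 within the second. In the first set, which has 1 control array, Adar (0.42), Parp9 (0.34) and Irgm1 (0.32) were higher and Oas2 (-0.43), Rsad2 (-0.67) and Gbp3 (-0.67) lower at an unadjusted p below 0.05, beside 5.35% of all genes higher and 6.70% lower, with 0 called. With the replicate number as a block, which here leaves out Tln1 vehicle 3, Oas2 and Gbp3 were lower at an unadjusted p below 0.05, beside 1.69% of all genes. No pairing by number is known between Tln1 and control arrays, and control 2 and Tln1 vehicle 2 lie in different array sets. With the mean of the Y-linked genes as a covariate the median was 0.27 and 4 members were higher at an unadjusted p below 0.05, beside 3.94%.

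Tln1 VPA against control shares its control arrays with that comparison and its Tln1 VPA arrays with the first. Of the 37 members 35 were higher and 2 lower, at a median of 0.37 beside 0.02 over all genes, and 0 were called by limma at an adjusted p below 0.05, as were 0 of all genes (0%). At an unadjusted p below 0.05, 3 members were higher, beside 1.23% of all genes. These were Stat2 at 0.45 (SE 0.14), Oasl2 at 0.65 (SE 0.25) and Parp14 at 0.80 (SE 0.32), each with a limma adjusted p = 1.00. Parp9 was at 0.45 (SE 0.20), Irgm1 at 0.91 (SE 0.41) and Ifitm3 at 0.53 (SE 0.24). Irgm1 and Oasl2 were both at 0.43 without Tln1 VPA 3, and without control 2 Ifitm3 was at 0.18 and Oasl2 at 0.42. Stat2, Irf1, Irgm1, Parp9, Parp14, Psmb8 and Tap1 were higher without overlap, 7 members beside 5.57% of all genes, and 0 members were lower without overlap, beside 3.98%. Without Tln1 VPA 3 the median was 0.08 beside 0.07 over all genes, Stat2 was at 0.35 (SE 0.13) and Parp14 at 0.47 (SE 0.20), and 3 members had an unadjusted p below 0.05 (Stat2 and Irgm1 higher, Trim30a lower), beside 2.98% of all genes. The unadjusted count over all arrays was 9 higher with the array set as a block, beside 4.06% of all genes, 1 higher with quantile normalisation, beside 1.16%, 1 higher with the replicate block, which leaves out Tln1 VPA 3, beside 4.40%, and 18 higher with the mean of the Y-linked genes as a covariate, beside 3.28%. The median of the members was 0.06 within the first set and 0.79 within the second, where 18 members were at least 1 log2 unit higher, beside 0.762% of all genes.

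A wider list of the pathway held 71 further genes, of which 65 were measured and the others were not analysed here. In Tln1 VPA against Tln1 vehicle 53 were higher and 12 lower at a median of 0.13, 0 were called, and at an unadjusted p below 0.05 there were 5 higher and 1 lower, beside the shares given above. The smallest p belonged to Lgals3bp, a secreted glycoprotein (0.62, SE 0.17), Stat3, the STAT of interleukin 6 signalling (0.41, SE 0.13), and Sting1, the adaptor of cytosolic DNA sensing (0.81, SE 0.27). For each of these, picked by p in this same comparison, all Tln1 VPA arrays lay above all Tln1 vehicle arrays. That held for 8 of the 65 genes, beside 1.98% of all genes, and the reverse for 2, beside 1.57%. The interferon receptor chains had changes of 0.07 for Ifnar1, 0.12 for Ifnar2, -0.10 for Ifngr1 and 0.25 for Ifngr2 (SE 0.16, 0.14, 0.13 and 0.34). Of the interferons themselves, Ifng lay between 2.76 and 3.07, Ifnb1 between 2.67 and 3.04 and Ifnk between 2.53 and 3.10 over all arrays, with Tln1 VPA 3 at 2.93, 2.77 and 2.53. All values of these 3 genes lay below the median gene mean of 4.92, so a lack of change cannot be told from low signal. Ifna4 was at 5.35 in Tln1 VPA 3 and 5.50 to 6.15 elsewhere. Tln1 VPA 3 was the highest array for 27 of the 65 wider list genes, beside 7.04% of all genes. Of 8 genes of the wider list that serve MHC class I antigen processing, grouped after their values had been seen, 7 were highest in Tln1 VPA 3. Psme2, a proteasome activator chain, was not, at 6.01 against 5.78 to 6.38. Psmb10, the remaining immunoproteasome subunit, was at 8.45 against 5.91 to 6.94, the MHC class I chain H2-K1 at 10.84 against 8.66 to 9.74, and Nlrc5, the activator of MHC class I genes, at 5.99 against 4.14 to 4.62. In Tln1 vehicle against control the wider list had 43 higher and 22 lower at a median of 0.05, and in Tln1 VPA against control 49 higher and 16 lower at 0.19, with 0 called in each.

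Markers of some immune cells were also higher in that array. The 7 measured markers of MHC class II and dendritic cells averaged 7.08 in Tln1 VPA 3 and 5.40 to 6.04 in the other arrays, and 5 of the 7 were highest there. The class II chain gene H2-Ab1 was at 11.47 against 7.53 to 9.12 and its activator Ciita, which interferon gamma induces, at 6.70 against 4.97 to 5.38. Of the dendritic cell genes, Itgax was highest there too, at 4.97 against 3.91 to 4.48. Flt3 and Zbtb46 were not, at 3.85 against 3.56 to 4.24 and at 5.67 against 5.35 to 5.78. The 16 macrophage markers averaged 6.03 in that array and 4.60 to 5.40 elsewhere, and 12 of the 16 were highest there. Adgre1, which marks tissue macrophages, was at 4.91 against 3.03 to 4.34, and Csf1r at 6.36 against 5.20 to 6.04. Cd14, Itgam, Cx3cr1 and Aif1 were not highest there. Cx3cr1 was at 5.96 against 5.47 to 6.44, and Aif1 at 3.37 against 3.06 to 3.91. Of the 16 markers 7, Adgre1 among them, had means at or below the median gene mean. In the first set, 6 of the 7 class II and dendritic markers were higher with valproic acid than with vehicle, at a median of 0.33. H2-Ab1 stood there at 8.30 in control 1, at 7.75 and 7.53 in Tln1 vehicle and at 9.12 and 8.71 in Tln1 VPA arrays. With valproic acid 15 of the 16 macrophage markers were higher than with vehicle in the first set too, at a median of 0.43. In that set their mean was 5.05 in control 1, and 4.62 and 4.60 in Tln1 vehicle 1 and 2. It was 5.19 and 4.86 in Tln1 VPA 1 and 2, to either side of the control value. The 4 neutrophil markers averaged 3.46 against 2.96 to 3.11, all 4 with means at or below the median gene mean. The 11 measured T and natural killer cell markers averaged 3.49 in Tln1 VPA 3 and 3.31 to 3.63 elsewhere, and all 11 had means at or below the median gene mean. Of them 2 were highest in Tln1 VPA 3, Cd3e at 4.05 against 3.53 to 3.78 and Cd4 at 4.54 against 3.37 to 4.11, while Cd3d was lowest there, at 3.39 against 3.40 to 4.44. B cell markers (3 of 4 measured) averaged 3.16 against 3.08 to 3.53 and plasmacytoid dendritic markers (3 measured) 3.31 against 3.37 to 3.74, all at or below that mean. Podocyte markers stood at 8.67 in Tln1 VPA 3 beside 9.43 and 9.04 in the other arrays of its set. The 7 endothelial markers averaged 9.13 in Tln1 VPA 3 beside 8.83 in control 2 and 9.97 in Tln1 vehicle 3. With valproic acid 0 of the 7 were higher, at a median change of -0.45 over all arrays and -0.65 in the second set. Over all arrays 2 of them were lower at an unadjusted p below 0.05, beside 0.428% of all genes. Of the 4 measured mesangial markers 0 were higher with valproic acid, at a median change of -0.21, and 1 was lower at that threshold. Higher at it were 2 macrophage markers, 1 class II or dendritic marker and 1 neutrophil marker, beside 0.834% of all genes. No gene was called. The part of any of these cells in the result was not tested. Uty, Kdm5d and Eif2s3y, which lie on the Y chromosome, had a mean of 2.56 in Tln1 VPA 3 beside 2.70 and 2.72 in the rest of its set, and of 3.57 in control 1 against 4.85 to 7.0 in the Tln1 arrays of the first set. These means went with the array set and, in the first set, with the group, so sex, set and group cannot be told apart.

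**Figure D4:**
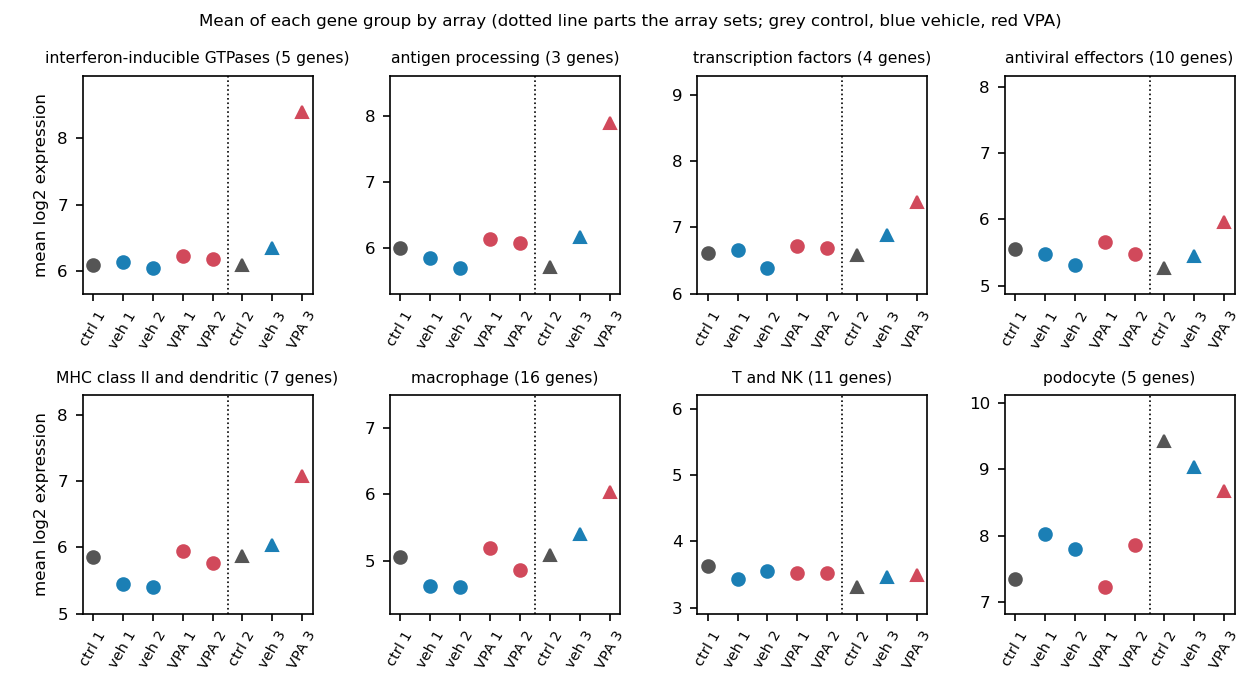
Mean log2 expression of 4 groups of members (upper row) and 4 marker lists (lower row) in each array, with grey for control, blue for Tln1 vehicle and red for Tln1 VPA, circles for the first and triangles for the second array set. The axes differ in their start but span the same number of log2 units. The GTPases (8.40) and antigen processing genes (7.90) of Tln1 VPA 3 stand above all other arrays (at most 6.34 and 6.17). The means of the MHC class II and dendritic list and of the macrophage list stand higher there by less. The former list includes Flt3 and Zbtb46, which were not highest in that array. The means of T and natural killer cell markers stay between 3.31 and 3.63.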

How the data were processed

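Total RNA of 8 glomerular isolates was hybridised to Affymetrix arrays. The authors deposited log2 values, for which the submitters' processing notes name RMA and limma. The sources used here give no version, annotation or genome build, and do not say which arrays were normalised together. The files hold 41345 probe sets, with values from 1.49 to 13.90. Their number of arrays limits the precision.

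From these values 1 probe set per gene was kept (single symbol, highest mean), and a single two-sided limma model (lmFit, eBayes) with the group as its term gave all 3 comparisons in R 4.3.3 with limma 3.58.1, with Benjamini-Hochberg adjustment over 22180 genes and calls at an adjusted p below 0.05. The array sets came from clustering by correlation. The fits were tested on simulated data, and figures were drawn with matplotlib 3.10.9. Deviations from the group means correlated between Tln1 arrays of the same number (r = 0.570, 0.609 and 0.787), which was taken as pairing, although these numbers also follow the array sets and the labels state no pairing. Between Tln1 and control arrays r was 0.609 and -0.591 for Tln1 vehicle and 0.593 and -0.496 for Tln1 VPA. The deviations of the 2 control arrays mirror each other. Control 2 also lies in the second set, while Tln1 vehicle 2 and Tln1 VPA 2 lie in the first. These signs therefore cannot show whether numbers pair these groups. Values in every array are given for the signalling factors and for the 6 members with the smallest p per comparison, the 3 with the smallest p in the interaction and the 3 with the widest set difference in each direction, and others were chosen after their values had been seen. The members, the lists, the array sets and the rules were chosen with earlier results of these data known.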

Additional observations from a re-analysis of the deposited data

How the results depend on the processing

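Called members stayed at 0 in all 3 comparisons under every alternative that gave a test, with 0 to 0 called without any single array. All genes called stayed at 0 too, also without any single array (0 to 0), except that the replicate block gave 52 in Tln1 vehicle against control and 117 in Tln1 VPA against control, and the Y-linked covariate gave 21 in Tln1 VPA against control. In the replicate block of those comparisons, Tln1 vehicle 3 and Tln1 VPA 3 have no control of their number, so these arrays drop out. No pairing by number is known between Tln1 and control arrays, and control 2 lies in another array set than Tln1 vehicle 2 and Tln1 VPA 2. The replicate block changed no call in Tln1 VPA against Tln1 vehicle.

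The median change of the members depended on Tln1 VPA 3. In Tln1 VPA against Tln1 vehicle it was 0.09 in the first array set, 0.63 in the second, and 0.06 to 0.47 without single arrays, lowest without Tln1 VPA 3. In Tln1 VPA against control it was 0.06 and 0.79 in the sets, 0.08 with the replicate block, and 0.08 to 0.50 without single arrays, again lowest without Tln1 VPA 3. In Tln1 vehicle against control it was 0.27 with the Y-linked covariate, with 32 members higher, beside 0.03 as reported, and -0.02 to 0.12 without single arrays. In the interaction with the array set, whose spread comes from first-set arrays only, 1 member (Igtp) passed with arrays centred on the median and 1 with quantile normalisation, which says nothing of the spread in the second set. For the 6 members with the smallest p in each comparison no value was called under any alternative, and 290 of 294 values kept their sign, though not their size, as the values without Tln1 VPA 3 show. The 4 that changed sign were in Tln1 vehicle against control: Parp9 was at -0.06 and Irf7 at 0.08 in the second set, and with the Y-linked covariate Irf7 was at 0.03 and Oas2 at 0.25. The cause was not tested.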

Other observations

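Genes outside the lists stood apart in Tln1 VPA 3 as well. Ranked after the values had been seen, by the gap between Tln1 VPA 3 and the highest of the other 7 arrays, the 40 widest gaps of 22180 genes held 10 of the listed members and 3 of the wider list (Gbp4, Psmb10 and Nlrc5). The widest belonged to the guanylate-binding protein gene Gbp8, at 9.37 in Tln1 VPA 3 and 2.87 to 3.96 elsewhere, and to Gbp11, at 7.63 against 2.54 to 3.11. Gbp10 stood at 10.66 against 6.71 to 7.40. Genes of such near-identical families can share signal at a probe set.

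The same 40 included MHC class II genes (H2-Ab1, H2-DMa, H2-Aa and H2-Eb1). Cd274, the checkpoint ligand PD-L1, stood at 8.06 against 5.48 to 6.52, and the chemokine Ccl5 at 7.20 against 5.04 to 5.80. The complement genes C4b and C1qb stood at 7.52 and 7.97, against 4.55 to 6.09 and 5.09 to 6.59. Genes outside immune families were among them as well, such as Pappa2, a protease expressed in the macula densa, at 5.28 against 2.62 to 3.61, and the integrin chain Itga2 at 7.43 against 4.27 to 6.30.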
